A study of Mus musculus with 8 samples.

Results

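The 8 purinergic and adenosine genes P2rx7, P2rx4, P2ry10, Entpd1, Nt5e, Adora2a, Ada and Art2b were followed across TFH, TFR, Treg and naïve CD4 T cells of peripheral lymph nodes (pLN). They were taken by gene name as receptors and enzymes of extracellular nucleotides and adenosine, with no threshold on their values but with earlier results of these data known. They were read by 11 of the 39429 probes of the array, and all 8 were among the 15764 of 29924 gene names that could be tested. For a gene with several probes, the probe with the highest mean log2 level stood for the gene and the others served as a check.

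Extracellular ATP, released by stressed or activated cells, opens P2X ion channels, of which P2X7 is the one tied to T cell death and to shedding of surface proteins. CD39 (Entpd1) cleaves ATP and ADP to AMP, CD73 (Nt5e) turns AMP into adenosine, and adenosine acts on T cells mainly through the receptor coded by Adora2a, whose cyclic AMP signal dampens T cell receptor responses. Adenosine deaminase (Ada) removes adenosine, and ART2.2 (Art2b) uses NAD to ADP-ribosylate surface proteins of mouse T cells, P2X7 among them. Among CD4 T cells, follicular helper T cells (TFH) are known for P2X7 and CD73 and Treg cells for CD39, while follicular regulatory T cells (TFR) share traits of both.

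One-colour Agilent arrays measured total RNA of cells sorted 12 or 25 days (d12, d25) after KLH (keyhole limpet hemocyanin) in alum was given s.c.. All mice were of the strain B6.Cg-Foxp3<tm1Mal>, in which EGFP marks Foxp3+ cells, were 8 to 14 weeks old and of mixed sex, and each sample pooled the pLN of 8 to 15 mice. Naïve CD4 T cells were sorted as GFP-PD1-GL7-, TFH cells as GFP-PD1hiGL7+, Treg cells as GFP+PD1-GL7- and TFR cells as GFP+PD1hi regardless of GL7, so that the TFH and TFR gates differed in GL7 as well as in GFP. Each of these 4 cell types had 1 array at d12 and 1 at d25, 8 arrays in all, and 25 ng of RNA went into each. All mice were immunized, so the naïve and Treg samples came from the same responding nodes.

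A difference between 2 cell types below is the mean of its d12 and d25 values on the log2 scale, with the standard error of a limma fit of cell type and day to all 8 arrays, and p-values were adjusted over the 15764 genes by the Benjamini-Hochberg method. A gene was called at an adjusted p below 0.05. The p-values measure the spread between pools that differ in day, since no cell type was repeated at a day. The 4 arrays of d12 lay on slide 1, the naïve and TFH arrays of d25 on slide 2 and the Treg and TFR arrays of d25 on slide 3. TFH against naïve and TFR against Treg were therefore compared within slides, whereas Foxp3+ and Foxp3- cells of d25 were on different slides. Levels are given in relative units (RU), normalized so that the 75th percentile of every array was 1500 RU, with values under 20 RU set to 20. A level of one probe cannot be set against that of another probe.

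The labels held on their defining genes. Foxp3 ranged from 65.5 to 358 RU on the GFP- arrays and from 37266 to 49262 RU on the GFP+ arrays. Pdcd1 (PD1) lay between 2099 and 4621 RU in naïve and Treg cells and between 87316 and 303513 RU in follicular cells, and Cxcr5, the receptor for the follicular chemokine CXCL13, read 1400 to 4384 RU and 35322 to 237465 RU in the same groups. The arrays resembled each other in quality, with 86.45 to 89.18% of spots retained, 18261 to 19867 probes well above background and no saturated spot. Other cell types were followed by marker lists. The summed level of the 10 B cell markers was 6220 to 8470 RU in naïve, 10100 to 10500 RU in Treg and 7970 to 9200 RU in TFR cells. In TFH cells it was 8350 RU at d12 and 18600 RU at d25. Pax5 and Ebf1 were too dim to be tested. The 10 myeloid and dendritic markers summed to 92100 to 113000 RU in naïve, 80200 to 81400 RU in TFH, 83900 to 85500 RU in Treg and 70100 to 71100 RU in TFR cells, and Adgre1, Cd14, Fcgr1 and Xcr1 were not tested. The 5 CD8 T and NK markers summed to 5100 to 5340, 3640 to 6300, 4280 to 4680 and 2900 to 3100 RU in that order, and the 5 markers of antibody-secreting cells to 19800 to 24400, 38700 to 44900, 30800 to 32600 and 25900 to 34200 RU. Their part in the members' differences was not tested, and TFH minus naïve and TFR minus TFH differences of the members are therefore also given without the TFH array of d25.

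P2rx7, the ATP-gated channel P2X7, was far higher in all 3 differentiated or regulatory populations than in naïve CD4 T cells and was highest in TFH cells. Its main probe, for transcript variant 1, lies at chr5:123134194-123134253 (NCBI37, plus strand). A probe for variant 2 has its 60 bases spread over 2886 bases of the genome, chr5:123120528-123123413, so it crosses an intron, and a probe for variant 4 lies at chr5:123105174-123105233. They are shown because they read separate stretches of the gene, the variant 2 probe in full and the others by their first 30 of 60 bases, 5′ to 3′ as in the deposited annotation.
P2rx7 variant 1: ttcacttctctctttaaagggaaccatctt
P2rx7 variant 2: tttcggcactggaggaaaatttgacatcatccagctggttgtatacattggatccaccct
P2rx7 variant 4: ggtcaaaaagctccccaatccatgcaacaa

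The main probe read 1230 RU at d12 and 1586 RU at d25 in naïve cells, 36315 and 43620 RU in TFH cells, 14773 and 16123 RU in Treg, and 18158 and 17556 RU in TFR cells. Naïve cells stood far below the other 6 arrays, TFH cells stood above all others, and the Treg and TFR values were close. TFH exceeded naïve cells by 4.83 ± 0.13 on the log2 scale (28.5-fold, adjusted p = 8.89e-05), with 4.88 at d12 and 4.78 at d25. Without the TFH array of d25 the difference was 4.77 (adjusted p = 0.00173). Treg cells exceeded naïve cells by 3.47 ± 0.13 (11-fold, adjusted p = 0.000871). TFR cells were 1.16 ± 0.13 below TFH cells on that scale (2.23-fold lower, adjusted p = 0.00557). TFR and Treg cells did not differ by the test, with a difference of 0.21 ± 0.13, a 95% interval of -0.12 to 0.54 and an adjusted p of 0.239. Since these are bulk samples, fewer P2rx7-bearing cells and less P2rx7 RNA per cell cannot be told apart, here and for the genes below.

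**Figure D1:**
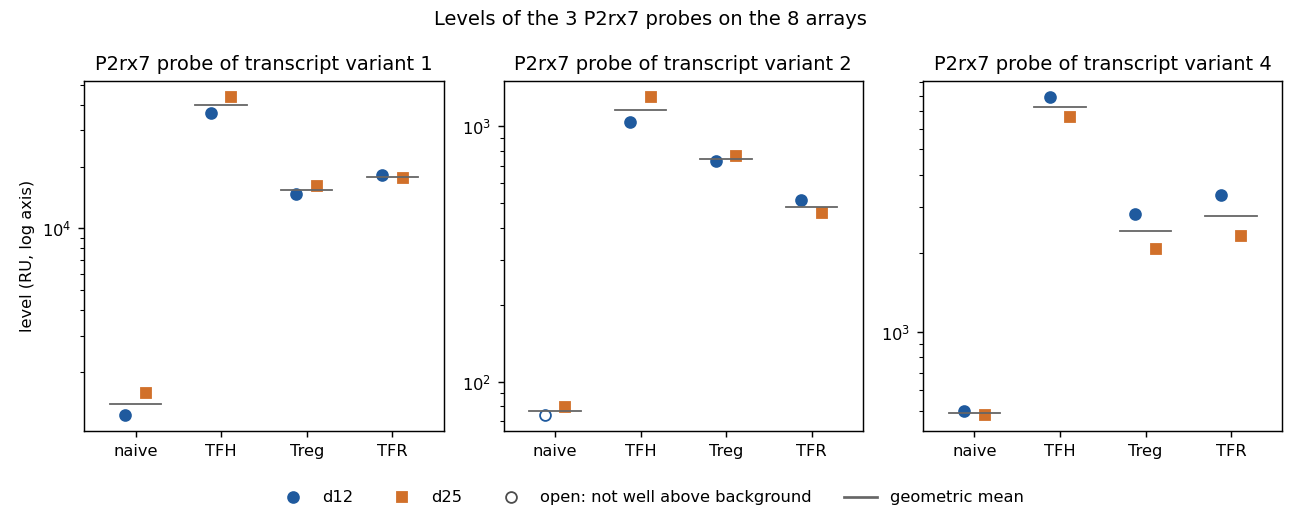
Levels of the 3 P2rx7 probes (RU, log axis, scales differ between panels) in the 4 cell types, 1 point per array, circles for d12 and squares for d25, with the geometric mean of each cell type as a line. In all 3 panels naïve cells lie lowest and TFH cells highest, from 1230 RU up to 43620 RU for variant 1.

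The other P2rx7 probes gave the same order of naïve and TFH cells. The variant 2 probe read 73.8 and 79.8 RU in naïve cells, of which only the d25 value was well above background, and 1037 and 1303 RU in TFH cells. The variant 4 probe read 499 and 480 RU in naïve and 7922 and 6651 RU in TFH cells. TFH minus naïve was 3.92 ± 0.14 and 3.89 ± 0.14 on these probes, against 4.83 on the main one. The probes parted over Treg and TFR cells. The variant 2 probe gave 732 and 762 RU for Treg against 514 and 456 RU for TFR cells, without overlap, a TFR minus Treg difference of -0.63 ± 0.14. The variant 4 probe gave 2832 and 2080 RU in Treg and 3328 and 2319 RU in TFR cells, which overlap, and a difference of 0.19 ± 0.14. The sign of the small TFR minus Treg difference of P2rx7 thus depended on the probe.

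P2rx4, which codes the P2X4 channel and neighbours P2rx7 on the chromosome, showed none of this range. Its probe (chr5:123178983-123179042, NCBI37) read 4134 and 4977 RU in naïve, 4501 and 6590 RU in TFH, 4681 and 5388 RU in Treg, and 5030 and 8028 RU in TFR cells. In each cell type the d25 array was the higher, and the ranges of the cell types overlapped except those of naïve and TFR cells. TFH minus naïve was 0.26 ± 0.15 (adjusted p = 0.199, interval -0.12 to 0.64), or 0.18 without the TFH array of d25 (adjusted p = 0.491), and TFR minus Treg was 0.34 ± 0.15 (adjusted p = 0.127, interval -0.04 to 0.72). TFR exceeded naïve cells by 0.49 ± 0.15 (adjusted p = 0.0426), a call that was lost without any one of the 8 arrays (adjusted p from 0.0542 to 0.218). A second probe of P2rx4, chr5:123179545-123179604, was well above background on 2 of the 8 arrays and added no measurement.

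P2ry10, a receptor of the P2Y group by sequence that responds to lysophosphatidylserine, was highest in Treg cells and lower in each follicular population than in its counterpart outside the follicle. It read 5193 and 6642 RU in naïve, 3782 and 5382 RU in TFH, 13526 and 18291 RU in Treg, and 8167 and 11295 RU in TFR cells (chrX:104300217-104300276, NCBI37). The Treg values lay above those of all other cells, and TFH values overlapped those of naïve cells, although TFH was the lower at each day. Treg exceeded naïve cells by 1.4 ± 0.09 (2.68-fold, adjusted p = 0.00201). TFR was 0.71 ± 0.09 below Treg (1.64-fold lower, adjusted p = 0.00455), with -0.73 at d12 and -0.69 at d25, and 1.09 ± 0.09 above TFH (adjusted p = 0.00234). TFH was 0.38 ± 0.09 below naïve (1.30-fold lower, adjusted p = 0.0202), and this small difference was no longer called without the naïve array of d12 (adjusted p = 0.124), the TFH array of d12 (0.0683) or the naïve array of d25 (0.0641). Without the TFH array of d25 it was -0.43 (adjusted p = 0.0383). With no day term in the fit, the TFH minus naïve, TFR minus Treg and TFR minus TFH differences of P2ry10 were not called (adjusted p = 0.329, 0.108 and 0.0521).

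**Figure D2:**
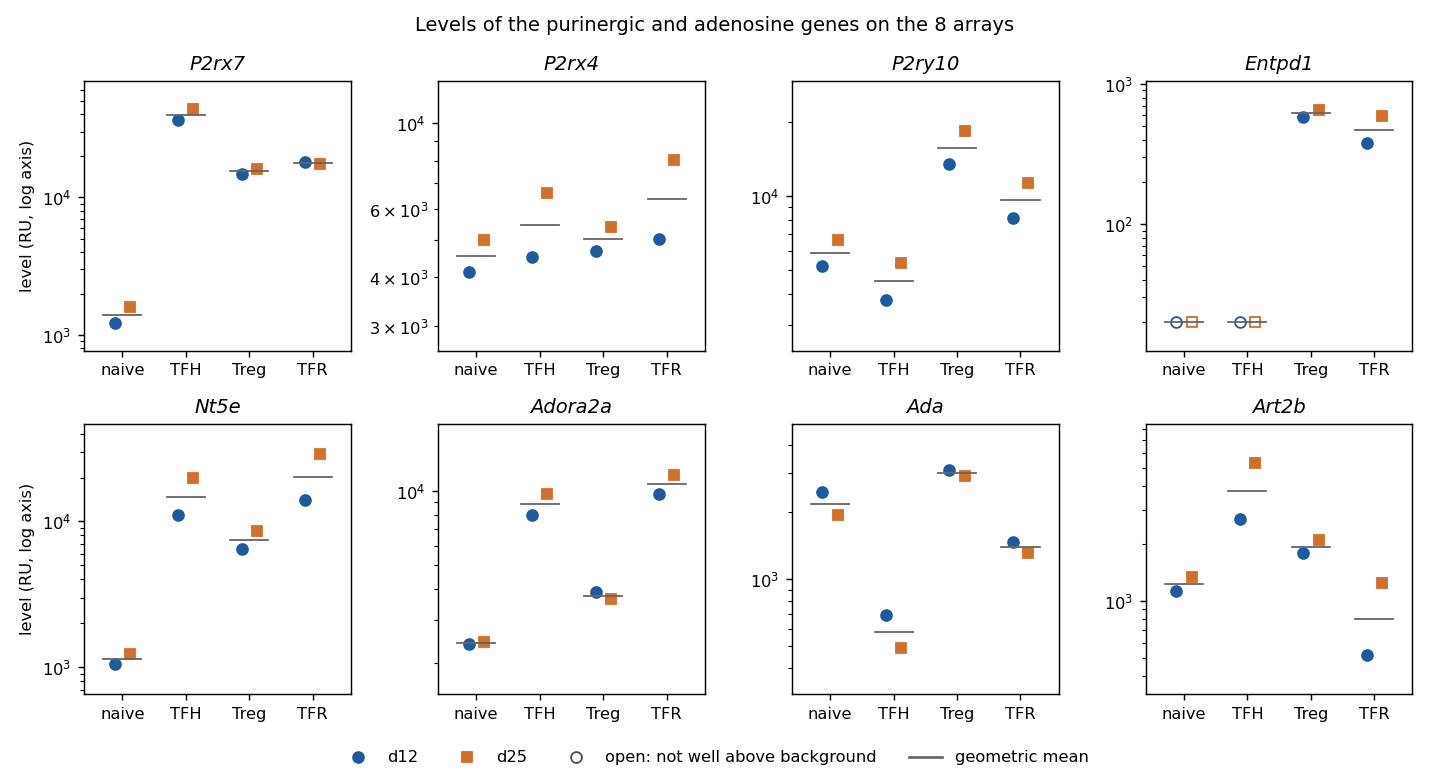
Levels of the 8 genes (RU, log axis, scales differ between panels) in the 4 cell types, 1 point per array, circles for d12 and squares for d25, open where the probe was not well above background, with the geometric mean of each cell type as a line. Entpd1 lies at the floor of 20 RU on the 4 naïve and TFH arrays and between 379 and 656 RU on the Treg and TFR arrays.

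Of the ectoenzymes, Entpd1 separated Foxp3+ from Foxp3- cells, whereas Nt5e was raised in follicular cells of both kinds and in Treg cells. The Entpd1 probe (chr19:40816008-40816067, NCBI37) was at the floor of 20 RU and not well above background on all naïve and TFH arrays, so no TFH minus naïve difference could be measured. It read 580 and 656 RU in Treg and 379 and 589 RU in TFR cells. Treg cells were at least 10.6-fold above naïve cells (adjusted p = 0.000887), and TFR cells were at least 13.7-fold above TFH cells (adjusted p = 0.0006) and at least 8.1-fold above naïve cells (adjusted p = 0.000164). These are lower bounds for the processing reported, taken against the dimmest probe well above background on each naïve or TFH array. The adjusted p-values belong to the fitted differences, with the naïve and TFH arrays at 20 RU, and not to these bounds. The lowest fitted differences over the alternative processings were 2.22, 1.84 and 1.91 on the log2 scale, in the same order, each still called. TFR minus Treg was -0.39 ± 0.18 (adjusted p = 0.156, interval -0.86 to 0.09), and the ranges of these cell types overlapped.

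Nt5e, the ectoenzyme CD73, read 1046 and 1228 RU in naïve, 11019 and 19705 RU in TFH, 6504 and 8589 RU in Treg, and 14126 and 29028 RU in TFR cells (chr9:88266616-88266675, NCBI37). Naïve cells lay below all others, Treg cells in the middle, and the follicular populations above, with TFH and TFR overlapping. TFH exceeded naïve by 3.70 ± 0.22 (13-fold, adjusted p = 0.000452), or by 3.56 without the TFH array of d25 (adjusted p = 0.00493). Treg exceeded naïve by 2.72 ± 0.22 (6.59-fold, adjusted p = 0.004). TFR exceeded Treg by 1.44 ± 0.22 (2.71-fold, adjusted p = 0.00877), with 1.12 at d12 and 1.76 at d25, and this call was lost without the Treg array of d25 (1.29, adjusted p = 0.0626) or the TFR array of d25 (1.16, adjusted p = 0.0551). The TFR against Treg call was also lost with no filter on dim probes (adjusted p = 0.0558) and with no day term (adjusted p = 0.0519). TFR and TFH did not differ by the test, at 0.46 ± 0.22 (adjusted p = 0.205, interval -0.12 to 1.03).

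Adora2a and Ada, the receptor and the main degrading enzyme of adenosine, moved in opposite directions in both follicular populations. Adora2a (chr10:74797461-74797520, NCBI37) read 2406 and 2449 RU in naïve, 8004 and 9680 RU in TFH, 3877 and 3631 RU in Treg, and 9736 and 11636 RU in TFR cells. The follicular arrays all lay above the naïve and Treg arrays, and each cell type's days were close. TFH exceeded naïve by 1.86 ± 0.13 (3.63-fold, adjusted p = 0.000626), and by 1.75 without the TFH array of d25 (adjusted p = 0.00507). TFR exceeded Treg by 1.5 ± 0.13 (2.84-fold, adjusted p = 0.00197), with 1.33 at d12 and 1.68 at d25. TFR minus TFH was 0.27 ± 0.13 (adjusted p = 0.187). Treg exceeded naïve by 0.63 ± 0.13 (1.55-fold, adjusted p = 0.0468), a call so near the threshold that it was lost without any one of the 8 arrays (adjusted p from 0.0538 to 0.212).

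Ada (chr2:163552581-163552640, NCBI37, minus strand) read 2458 and 1942 RU in naïve, 693 and 490 RU in TFH, 3099 and 2913 RU in Treg, and 1473 and 1317 RU in TFR cells. TFH cells were lowest, TFR cells next, and neither overlapped with any other cell type. TFH was 1.91 ± 0.13 below naïve on the log2 scale (3.75-fold lower, adjusted p = 0.000617), and TFR was 1.11 ± 0.13 below Treg (2.16-fold lower, adjusted p = 0.00419). Without the TFH array of d25 the TFH minus naïve difference was -1.75 (adjusted p = 0.00374). TFR exceeded TFH by 1.26 ± 0.13 (2.39-fold, adjusted p = 0.0047). Treg minus naïve was 0.46 ± 0.13 and was not called (adjusted p = 0.0969).

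Art2b, the NAD-dependent ADP-ribosyltransferase ART2.2, was the member whose follicular differences ran in opposite directions. It read 1120 and 1326 RU in naïve, 2701 and 5320 RU in TFH, 1782 and 2076 RU in Treg, and 516 and 1236 RU in TFR cells (chr7:108728423-108728482, NCBI37, minus strand). TFH lay above all other arrays, and TFR lay below Treg and overlapped with naïve cells. TFH exceeded naïve by 1.64 ± 0.30 (3.11-fold, adjusted p = 0.0113), whereas TFR was 1.27 ± 0.30 below Treg (2.41-fold lower, adjusted p = 0.0283) and 2.25 ± 0.30 below TFH (4.75-fold lower, adjusted p = 0.0096). Both TFH and TFR cells read higher at d25 than at d12, and these calls depended on single arrays and on the processing. With no filter on dim probes, TFH against naïve, TFR against Treg and TFR against TFH were not called (adjusted p = 0.0694, 0.131 and 0.0706). With no day term, TFR against Treg was not called (adjusted p = 0.103). TFH against naïve was lost without the naïve array of d25 (1.35, adjusted p = 0.0647) or the TFH array of d25 (1.44, adjusted p = 0.0609). TFR against Treg was lost without the Treg array of d12 (-0.96, adjusted p = 0.149), the TFR array of d12 (-0.88, 0.141) or the Treg array of d25 (-1.57, 0.0617), and with slide in place of day (adjusted p = 0.0577). TFR against TFH was lost without the TFR array of d12 (-1.86, 0.0639) or the TFH array of d25 (-2.04, 0.0584), and with slide in place of day (0.0556). The probe of the neighbouring Art2a-ps, a close relative of Art2b, matched the Art2b probe at no more than 21 of 53 aligned bases, but how far the Art2b probe also binds other Art2 transcripts was not tested.

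The calls of the members were counted for each comparison and set beside the share of all tested genes called. In TFH against naïve, 4 of 8 were higher (P2rx7, Nt5e, Adora2a, Art2b), where 20.9% of all tested genes were higher, and 2 were lower (P2ry10, Ada), where 25.6% of all were lower. In TFR against Treg, 2 were higher (Nt5e, Adora2a) beside 18.7% of all genes, and 3 were lower (P2ry10, Ada, Art2b) beside 20.9%. In TFR against TFH, 3 were higher (P2ry10, Entpd1, Ada) beside 11.6%, and 2 were lower (P2rx7, Art2b) beside 10.5%. In Treg against naïve, 5 were higher (P2rx7, P2ry10, Entpd1, Nt5e, Adora2a) beside 5.89% of all genes, and 0 were lower beside 3.98%. TFR against naïve called 7 of 8, all but Art2b, where 53.1% of all genes were called, and TFH against Treg called 6, where 39.8% were. The median difference over the 7 members measured in TFH against naïve was 1.64, and over the 8 members it was -0.09 in TFR against Treg, 0.37 in TFR against TFH and 1.04 in Treg against naïve. The medians over all tested genes were -0.07, -0.08, -0.03 and -0.01, in the same order. With 8 genes picked by name, these counts describe the list and carry no test.

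Foxp3+ and Foxp3- cells shared a slide only at d12. On that slide, Treg minus naïve was 3.59 for P2rx7, 1.38 for P2ry10, 2.64 for Nt5e and 0.69 for Adora2a, and TFR minus TFH was -1.0 for P2rx7, 1.11 for P2ry10, 1.09 for Ada and -2.39 for Art2b, all of the same sign as the mean over both days. Without the TFH array of d25, TFR minus TFH was -1.10 for P2rx7 (adjusted p = 0.0361), 1.14 for P2ry10 (0.013) and 1.10 for Ada (0.0215), each still called, as was Entpd1 (0.00639). It was 0.60 for Nt5e (adjusted p = 0.264), 0.38 for Adora2a (0.187) and 0.31 for P2rx4 (0.355), none of them called with or without that array. With slide in place of day, the Treg minus naïve difference of Adora2a was 0.66 and not called (adjusted p = 0.17).

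**Figure D3:**
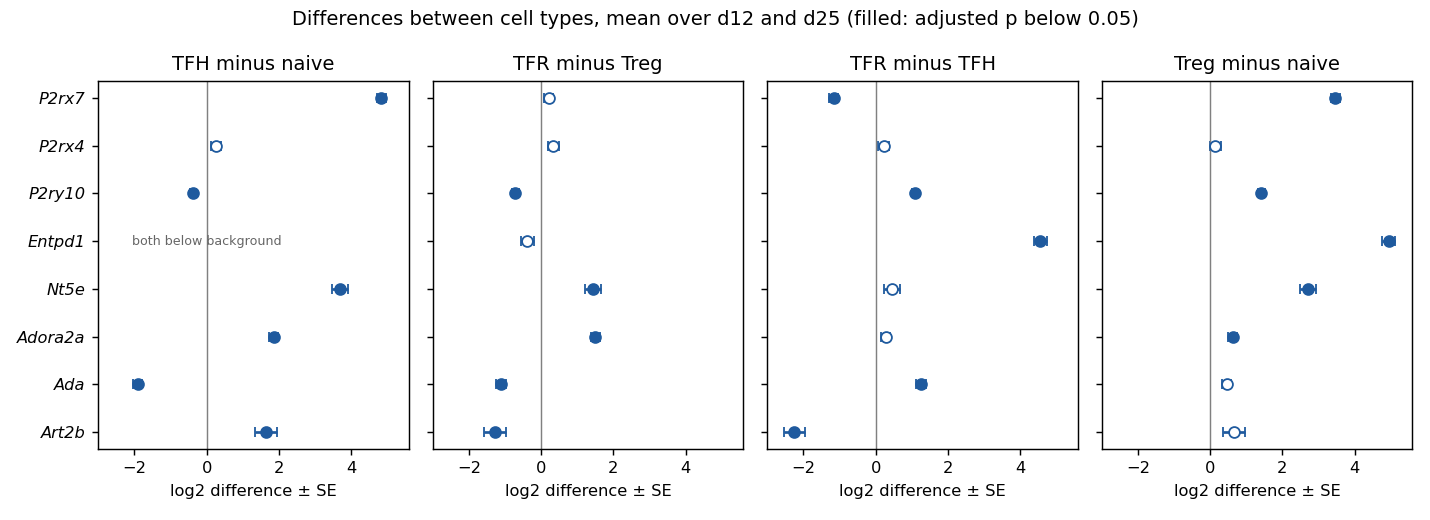
Differences between cell types for the 8 genes (log2, mean over d12 and d25, bars ± SE of the fit), filled where the adjusted p was below 0.05. P2rx7 and Nt5e reach 4.83 and 3.70 in TFH minus naïve, but 0.21 and 1.44 in TFR minus Treg, and Entpd1 has a fitted value only where at least one cell type was above background.

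The difference between the 2 follicular differences was itself tested, as TFR minus Treg less TFH minus naïve. It was called for 3 of 8 members, where 8.49% of all genes were called. It was -4.62 ± 0.18 for P2rx7 (adjusted p = 0.0028), -2.26 ± 0.31 for Nt5e (adjusted p = 0.021) and -2.91 ± 0.43 for Art2b (adjusted p = 0.0239), so that each had the smaller or the negative difference on the Foxp3+ side. A Treg level above that of naïve cells enters this value just as a TFR level below that of TFH cells does. Treg minus naïve was 3.47 for P2rx7, 2.72 for Nt5e and 0.66 for Art2b. TFR minus TFH was -1.16, 0.46 and -2.25, in the same order, so Nt5e was not lower in TFR than in TFH cells. The tested P2rx7 value was -4.59 at d12 and -4.66 at d25 and was called under each alternative processing tried. That of Nt5e was lost without any array except the naïve array of d12 (adjusted p from 0.0538 to 0.1), and that of Art2b without any one of the 8 arrays (0.0571 to 0.0992). With slide as a block in place of day both also missed the threshold (adjusted p = 0.0564 and 0.0642). Adora2a gave -0.35 ± 0.18 (adjusted p = 0.297), P2ry10 -0.33 ± 0.12 (0.177), P2rx4 0.08 ± 0.21 (0.862) and Ada 0.80 ± 0.18 (0.067), and for Entpd1 it could not be measured.

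**Figure D4:**
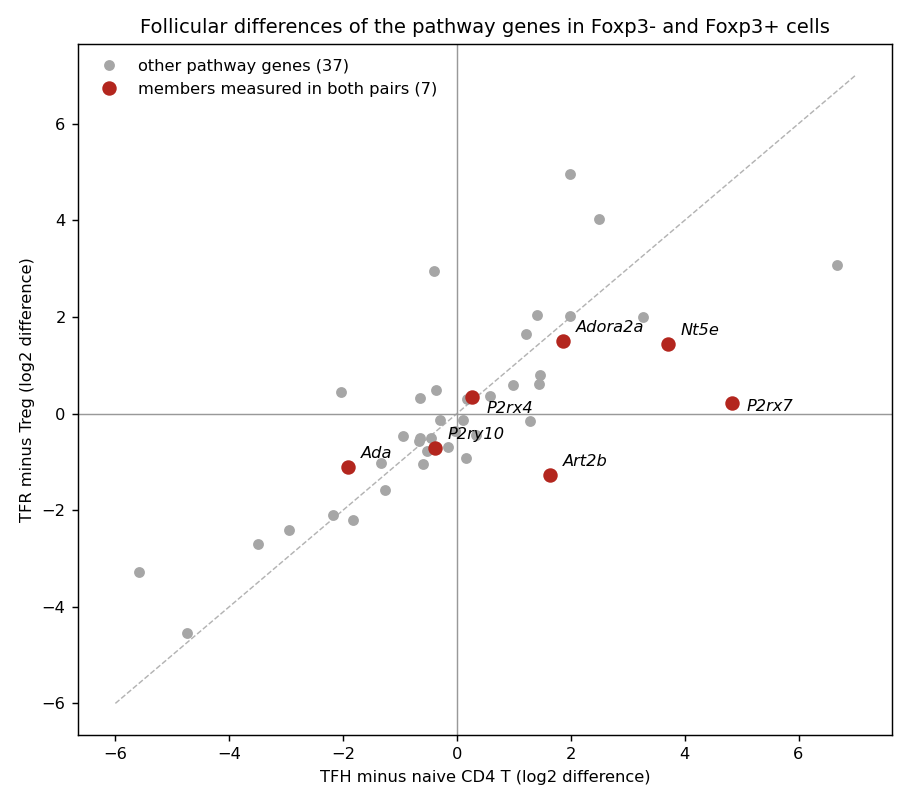
TFR minus Treg (vertical, log2) against TFH minus naïve CD4 T (horizontal, log2) for the 7 members measured in both pairs and 37 other tested genes of the pathway lists, 1 point per gene, with equality as a dashed line. P2rx7 lies at 4.83 and 0.21, Nt5e at 3.70 and 1.44, and Art2b at 1.64 and -1.27, all below the line.

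Between the days, no member was called by limma (0 of 8, where 0.0698% of all genes were called), and 5 of 8 had an unadjusted p below 0.05, as had 28.8% of all genes. P2rx4, P2ry10, Nt5e and Art2b were higher at d25 in 4 of 4 cell types, and Ada was lower in 4 of 4. The mean d25 minus d12 difference was 0.68 ± 0.21 for Art2b (adjusted p = 0.131), 0.63 ± 0.16 for Nt5e (adjusted p = 0.0995), 0.44 ± 0.06 for P2ry10 (adjusted p = 0.0659) and 0.42 ± 0.10 for P2rx4 (adjusted p = 0.0966). It was -0.27 ± 0.09 for Ada (adjusted p = 0.139) and 0.18 ± 0.09 for P2rx7 (adjusted p = 0.25). Day and slide cannot be told apart in this design.

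Of 61 further genes of the pathway, 60 were on the array and 39 could be tested. In TFH against naïve cells 10 of these were higher and 14 lower, beside 20.9% and 25.6% of all tested genes, and in TFR against Treg cells 11 were higher and 13 lower, beside 18.7% and 20.9%. TFR against TFH called 10 higher and 6 lower, beside 11.6% and 10.5%, and Treg against naïve 4 higher and 5 lower, beside 5.89% and 3.98%, of which 1 each (Art5 and P2rx5) was not well above background in either cell type. Over those measured in at least one of the cell types compared (38, 38, 37 and 34 genes), the median differences, with lower bounds where one cell type was below background, were -0.22, -0.14, 0.18 and 0.10, where those of all tested genes were -0.07, -0.08, -0.03 and -0.01. Without the TFH array of d25, some calls in TFH against naïve and in TFR against TFH were lost and others gained. None of the called differences changed sign.

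Among the other P2X channels, P2rx5 was at least 1.43-fold higher in TFR cells (75.3 and 76.9 RU) than in Treg cells, where it was at the floor (adjusted p = 0.000632). P2rx3 and P2rx5 were the other P2X genes that could be tested, and P2rx1, P2rx2 and P2rx6 were too dim. Of the 6 P2Y and related receptors tested, 4 were lower and 1 higher in TFH against naïve cells, P2ry10 included, where 25.6% and 20.9% of all genes were. P2ry14, a receptor for UDP-sugars, read 340 and 588 RU in naïve and 107 and 112 RU in TFH cells, a difference of -2.03 ± 0.20 (adjusted p = 0.00168), but 448 and 515 RU in TFR cells. Gpr34, another lysophosphatidylserine receptor, read 1639 and 2071 RU in Treg, 223 and 363 RU in TFR and 190 and 269 RU in naïve cells, and was at the floor in TFH cells. It was 2.70 ± 0.18 lower in TFR than in Treg cells (log2, adjusted p = 0.00122), as P2ry10 also was lower, and at least 6.58-fold lower in TFH than in naïve cells (adjusted p = 0.000311). P2ry1, an ADP receptor, was at least 2.99-fold higher in TFH (117 and 358 RU) than in naïve cells (adjusted p = 0.0405), a call lost without the TFH array of d25 (adjusted p = 0.179).

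Of 12 tested genes listed as ectonucleotidases, members included, 2 were higher and 2 lower in TFH against naïve (20.9% and 25.6% of all genes), and 4 higher and 3 lower in TFR against Treg (18.7% and 20.9% of all genes). The list also holds Entpd4, Entpd5 and Entpd6, and whether the listed enzymes act outside the cell was not tested. Enpp2 (autotaxin, which makes lysophosphatidic acid) read 82.8 and 47.1 RU in Treg (well above background on 1 of 2 arrays) against 1768 and 2110 RU in TFR, a difference of 4.95 ± 0.69 (adjusted p = 0.00676). Alpl, the tissue-nonspecific alkaline phosphatase, which can also release adenosine from AMP, read 149 and 120 RU in Treg against 485 and 358 RU in TFR, a difference of 1.64 ± 0.46 (adjusted p = 0.043). Enpp4 fell in both follicular populations, by 2.17 ± 0.22 in TFH against naïve (adjusted p = 0.00197) and by 2.11 ± 0.22 in TFR against Treg (adjusted p = 0.00341) on the log2 scale. Entpd6 was 1.04 ± 0.13 lower in TFR than in Treg cells (log2, adjusted p = 0.0053), and Entpd2 was at least 1.54-fold higher in TFR (81.2 and 82.4 RU) than in Treg cells (adjusted p = 0.00417).

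The second adenosine receptor that could be tested, Adora2b, read 127 and 58.6 RU in TFH cells and was at least 1.48-fold higher than in naïve cells (adjusted p = 0.0418), while Adora1 and Adora3 were too dim. Adenosine turnover and transport, with 14 genes tested, counted 5 higher and 6 lower in TFH against naïve and 4 higher and 6 lower in TFR against Treg, beside the same shares of all genes. Ampd1, an AMP deaminase, read 1255 and 1177 RU in naïve and 192 and 196 RU in Treg cells and was not well above background in TFH or TFR cells. It was thus at least 34.2-fold lower in TFH than in naïve (adjusted p = 0.000185) and at least 4.18-fold lower in TFR than in Treg cells (adjusted p = 0.00112). Ampd3 was at least 2.91-fold lower in TFH than in naïve cells (adjusted p = 0.00221) and fell by 2.21 ± 0.20 on the log2 scale in TFR, where 1 of 2 arrays was well above background, against Treg (adjusted p = 0.00227).

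Slc29a1, the equilibrative nucleoside transporter ENT1, read 4749 and 4771 RU in naïve and 12089 and 13888 RU in TFH cells, a difference of 1.45 ± 0.11 (adjusted p = 0.000884). Slc29a4, another transporter of that family, which was well above background on 1 of the 2 naïve arrays, rose by 1.99 ± 0.50 in TFH against naïve (adjusted p = 0.0289, or 0.0843 and not called without the TFH array of d25) and by 2.03 ± 0.50 in TFR against Treg (adjusted p = 0.0322). Pnp2, a purine nucleoside phosphorylase, which acts on the inosine that Ada forms, was at the floor in naïve and Treg cells, read 143 and 89.7 RU in TFH and 313 and 342 RU in TFR cells, and was at least 6.17-fold higher in TFR than in Treg cells (adjusted p = 0.000724).

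Of the genes listed as NAD glycohydrolases and ADP-ribosyltransferases, the ectoenzyme Cd38 rose in both follicular populations, with 119 and 177 RU in naïve, 885 and 2221 RU in TFH, 757 and 1054 RU in Treg and 2677 and 4763 RU in TFR cells. TFH minus naïve was 3.27 ± 0.23 (adjusted p = 0.000648), or 2.92 without the TFH array of d25 (adjusted p = 0.00248), and TFR minus Treg 2.0 ± 0.23 (adjusted p = 0.00391). Cd38 competes with Art2b for NAD outside the cell. Art2a-ps was at the floor of 20 RU on all naïve and Treg arrays and read 1282 and 3234 RU in TFH and 89.5 and 320 RU in TFR cells, at least 34.9-fold above naïve (adjusted p = 0.000912, or 0.0088 without the TFH array of d25) and at least 3.19-fold above Treg (adjusted p = 0.0114). In TFR against Treg it therefore ran opposite to Art2b. The suffix of Art2a-ps marks a pseudogene, and enzyme activity was measured for none of these genes. Art4 stood at 2327 and 2465 RU in naïve and 1920 and 1822 RU in Treg but at 55.4 and 146 RU in TFH and 72.1 and 88.2 RU in TFR, differences of -4.74 ± 0.38 (adjusted p = 0.000942) and -4.55 ± 0.38 (adjusted p = 0.00194). Art3 was 2.95 ± 0.57 higher in TFR than in Treg cells (adjusted p = 0.0157), and Art5 was at least 2.41-fold lower in TFH than in naïve (adjusted p = 0.00143) and at least 1.48-fold lower in TFR than in Treg cells, where 1 of 2 arrays was well above background (adjusted p = 0.00147). On the side of nucleotide release, the vesicular nucleotide transporter Slc17a9 stood at 7100 and 6890 RU in naïve and 950 and 867 RU in TFH, and at 11024 and 8682 RU in Treg and 2204 and 1542 RU in TFR. Its differences were -2.95 ± 0.14 (adjusted p = 0.00027) and -2.41 ± 0.14 (adjusted p = 0.000871).

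Ordered by mean level, P2rx7 ran from naïve over Treg and TFR to TFH, and only the Treg and TFR neighbours did not differ by the test. Nt5e and Adora2a both ran from naïve over Treg and TFH to TFR, with TFH and TFR not separated. The step of Nt5e from Treg to TFH (0.98, adjusted p = 0.0241) was lost with slide in place of day (0.0753), with no day term (0.137), with no filter on dim probes (0.112) and without any one of the 4 Treg and TFH arrays (0.0619 to 0.138). P2ry10 ran from TFH over naïve and TFR to Treg with every neighbouring step called. With no day term in the fit, none of these P2ry10 steps was called (adjusted p = 0.329, 0.086 and 0.108). Ada ran from TFH over TFR and naïve to Treg with only the last step not called (adjusted p = 0.0969). The step of Ada from TFR to naïve (adjusted p = 0.0125) was lost without any one of the 4 arrays it compares (0.0546 to 0.086). For Art2b, in the order TFR, naïve, Treg, TFH, no neighbouring step was called (adjusted p = 0.148, 0.245 and 0.0563), and for P2rx4 none was either. For Entpd1, Treg and TFR cells were not separated and naïve and TFH cells had no measured level.

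Genes whose log2 levels ran most like each member's over the 8 arrays were sought among 13299 genes well above background on all arrays, as a description. For Entpd1 these were Il2ra (Pearson r = 0.9991), the interleukin 2 receptor alpha chain, Lrrc32 (r = 0.9954), the Treg surface protein GARP, and Fam89a (r = 0.9856). For P2rx7 they were Tnk2 (r = 0.9919), a transcript with no gene symbol (r = 0.9894) and Pou2f2 (r = 0.9867). Adora2a ran most like Rilpl2 (r = 0.9984), Nmb (r = 0.9983) and Txndc12 (r = 0.9972), and Nt5e most like Vwa5a (r = 0.9914), Cd200 (r = 0.9909) and Slc9a7 (r = 0.9903). P2ry10 ran most like Ift80, Parp2 and Mbnl3 (r = 0.9917, 0.9906 and 0.9902), Art2b ran like Itm2b and Lamp1 (r = 0.992 and 0.9867), P2rx4 most like Ubxn2b, Msi2 and Zfp947 (r = 0.9854, 0.9797 and 0.9771), and Ada most like 3 transcripts with no gene symbol (r = 0.9934 to 0.9956). The 8 points share slides and days, and the best of 13299 values of r is high by its selection. For Entpd1, the 4 naïve and TFH points are the floor of 20 RU and not measured levels.

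The sequences before the start sites of P2rx7, the member with the largest TFH minus naïve difference, of Entpd1, above background in Foxp3+ cells alone, and of Ada, which fell in both follicular populations, are shown for context, 250 bases each from RefSeq (GRCm38.p6), where 7 of the 8 members had an entry. Letters of 4 motifs were searched on both strands and are in capitals: CTTTGA of TCF/LEF factors, TGTTTNC of forkhead factors, the E-boxes CAGGTG and CAGCTG, and TTCNNNGAA of STAT factors. Of 32851 promoters of this length, 13.8%, 17.8%, 27.7% and 7.0% held them in that order, and no matches overlapped in the members. The windows are chr5:122650133-122650382 on the plus strand for P2rx7 (the second of its 2 listed starts), chr19:40612116-40612365 on the plus strand for Entpd1 and chr2:163750240-163750489 on the minus strand for Ada.
P2rx7: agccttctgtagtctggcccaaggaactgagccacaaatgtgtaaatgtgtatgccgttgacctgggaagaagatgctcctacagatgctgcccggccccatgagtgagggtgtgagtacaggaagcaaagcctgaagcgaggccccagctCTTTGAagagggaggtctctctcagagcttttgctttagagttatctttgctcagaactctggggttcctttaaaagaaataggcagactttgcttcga
Entpd1: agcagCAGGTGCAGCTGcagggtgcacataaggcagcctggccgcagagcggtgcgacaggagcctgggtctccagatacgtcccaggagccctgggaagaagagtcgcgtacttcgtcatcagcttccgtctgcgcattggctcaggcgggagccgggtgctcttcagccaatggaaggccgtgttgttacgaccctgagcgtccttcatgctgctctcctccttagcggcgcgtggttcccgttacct
Ada: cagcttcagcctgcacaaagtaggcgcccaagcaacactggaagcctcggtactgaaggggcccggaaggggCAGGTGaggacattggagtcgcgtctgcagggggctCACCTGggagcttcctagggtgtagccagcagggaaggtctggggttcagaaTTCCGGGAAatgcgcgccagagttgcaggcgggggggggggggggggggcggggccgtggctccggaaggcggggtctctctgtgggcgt

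At the starts shown, P2rx7 held 1 TCF/LEF match, Entpd1 2 adjoining E-boxes and Ada 2 E-boxes and 1 STAT match, while the other listed starts of P2rx7 and Entpd1 held none of the 4 motifs. P2rx4 and P2ry10 each held 1 TCF/LEF match, Art2b and P2ry10 each 1 E-box, and Nt5e none of the 4 motifs, and no member held the forkhead letters. These matches are letters in a window and say nothing of binding.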

How the data were processed

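The authors hybridized fluorescently labeled cRNA to 1-colour Agilent arrays, each probe printed as 4 spots, and deposited spot intensities extracted with Agilent Feature Extraction 10.7.3.1 and a table of normalized intensities. Processed spot intensities were averaged by the geometric mean after the exclusions the authors describe (flagged spots, spots beyond 1.42 interquartile ranges, pixel variation above 0.5), quantile normalized, scaled to a 75th percentile of 1500 RU, set to at least 20 RU and taken as log2. The values rebuilt here correlated with the deposited table at r of at least 0.9994. A probe was well above background where over 50% of its retained spots carried that mark, and a gene was tested if its brightest probe was so on both arrays of a cell type. limma 3.58.1 in R 4.3.3 fitted cell type and day additively to all 8 arrays (3 residual degrees of freedom). The test was also run on simulated data, with no error rate reported here. One-way ANOVA with a Tukey test, named in the methods, was not run, and the limma alternative with no day term has the same terms. Where a cell type was below background, a fold is a lower bound, and the adjusted p beside it is that of the fitted difference.

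The members and gene lists were chosen with earlier results of these data known. Named are all members, pathway genes called in TFH against naïve or TFR against Treg with an absolute log2 difference of at least 1, the 3 genes most like each member, and gate genes. Alternatives were other scaling, background correction (normexp, offset 50), spot and probe filters, probe averaging, the deposited table, slide or no term in place of day, a fold threshold of 1 on the log2 scale, and each array left out. Promoter sequences came from RefSeq (GRCm38.p6), which was used for no coordinate of a probe. Probe positions are those of the array annotation (NCBI37). The number of arrays limits the precision. Peyer's patch samples were not analysed here. Some genes of the marker lists and of the likeness search are not reported here.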

Additional observations from a re-analysis of the deposited data

Results flagged for a closer look

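For 3 genes the follicular difference on the Foxp3+ side (TFR minus Treg) departed from that on the Foxp3- side (TFH minus naïve) by limma's test of the difference itself, with Benjamini-Hochberg adjustment. The departure was -4.62 on the log2 scale for P2rx7 (adjusted p = 0.0028), -2.26 for Nt5e (adjusted p = 0.021) and -2.91 for Art2b (adjusted p = 0.0239). Of all tested genes, 8.49% were called in this test. For P2rx7 the call held with no filter on dim probes, with slide in place of day and with no day term. For Nt5e and Art2b it was lost under each of these. The sign was the same at d12 and at d25 for each of the 3, and the values given are means over those days. A Treg level above that of naïve cells enters the departure just as a TFR level below that of TFH cells does. Treg minus naïve was 3.47 for P2rx7, 2.72 for Nt5e and 0.66 for Art2b, and TFR minus TFH was -1.16, 0.46 and -2.25. Groups of 2 arrays were too small to look for single outlying samples.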

How the results depend on the processing

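Of 1032 alternative values of the members' differences, 935 kept direction and side of the threshold, 79 lost the call, 7 gained one and 11 turned sign. In TFR against Treg, 5 members were called, 3 with no filter on dim probes and 2 with no day term (Adora2a and Ada), and 3 to 5 when single arrays were left out (3 without the Treg array of d25). In TFR against naïve, 7 fell to 4 with an added log2 threshold of 1, and the share of all tested genes called fell from 53.1% to 23.7%. In TFR against Treg that share was 39.6%, 12.9% with no filter on dim probes and 26.9% with no day term. For the difference of the follicular differences it was 8.49%. There it fell to 1.4% with no such filter, 4.38% with slide in place of day and 5.12% with no day term. Of the 3 members whose follicular differences departed between Foxp3+ and Foxp3- cells, 1 (P2rx7) was left with no filter on dim probes, with slide in place of day and with no day term, and 1 to 2 when single arrays were left out. Between days, 0 became 2 with normexp (P2rx4 and P2ry10) and 1 with only genes well above background on all arrays (P2ry10), and the count over all genes rose from 11 to 855 with normexp. Over all tested genes, the calls ranged from 4309 to 7739 in TFH against naïve (7332 as reported), 2494 to 6731 in TFR against Treg (6249), 942 to 3916 in TFR against TFH (3486), 416 to 1865 in Treg against naïve (1557), 4660 to 8915 in TFR against naïve (8373), 3167 to 6453 in TFH against Treg (6278) and 292 to 1620 in the difference of the follicular differences (1339), each lowest with 1 array left out and leaving aside the added log2 threshold. Between days limma called 0 with all probes of a gene averaged (4194 at an unadjusted p below 0.05) and 0 without any one of the 8 arrays (2683 to 3697 unadjusted). The other counts of members stayed within 1.5 times under each alternative.

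The signs that turned belonged to uncalled differences. Averaging all probes gave -0.074 for P2rx7 and -0.23 for P2rx4 in TFR against Treg, -0.57 for P2rx4 in TFR against TFH, -1.15 for P2rx4 in the departure between Foxp3+ and Foxp3- cells and -0.02 for P2rx7 between days. Leaving out single arrays gave P2rx4 values from 0.00 to 0.294 in Treg against naïve, -0.03 to 0.264 in TFH against Treg and -0.091 to 0.243 in the departure. Taken alone, the second P2rx4 probe, well above background on 2 of the 8 arrays, gave -0.80 in TFR against Treg. The variant 2 probe of P2rx7 gave -0.63 there. The cause of the turns was not tested. With no quantile normalization the median of all genes in TFH against naïve moved from -0.07 to -0.13, and no called difference of a member changed sign under it. A cell type has 1 array a day, so the day term is the pairing of arrays, and leaving it out is the fit with no replicate block.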
